A study of Physcomitrium patens with 47 samples.

Results

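Lines 46 and 48 are a pair of separately numbered knockout (KO) lines of the moss Physcomitrium patens, both disrupted in NDUFA5, a gene for a subunit of respiratory complex 1. Of the 47 messenger RNA libraries of the series, 14 came from these lines, 8 from line 46 and 6 from line 48, chosen by the line number in their titles. Times are in hours of zeitgeber time (ZT), counted from when the light comes on. Line 46 had 2 libraries at ZT0, 3 at ZT2 and 3 at ZT6. Line 48 had 2 at each time. Both lines are knockouts of the same gene and were grown and frozen under the same protocol. Their comparison asks how far knockout lines of the same gene differ. The labels of library 46-3 at ZT6 disagree, with 46 in its title and 48 as its plant line. It was counted as line 46, and results that rest on this library are given without it too.

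Complex 1 oxidises NADH in the mitochondrial matrix, passes the electrons to ubiquinone and pumps protons across the inner membrane. NDUFA5 is an accessory subunit in its matrix arm. In plant cells respiration runs beside photosynthesis in the light and supplies ATP alone in the dark. The vegetative moss is haploid, so that a disrupted gene leaves no second allele of that gene. Independent lines of a knockout are compared because changes carried by only 1 line are not shared with the other.

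All plants, which also included wild type (WT) and KO lines of COX11, an assembly factor of respiratory complex 4, were a mix of protonema and young gametophores kept for 15 days over liquid medium in closed boxes, with 12 h of light and 12 h of dark. ZT0 plants had been in foil since ZT12 and were frozen under dim green light, and the others were frozen in the light. The sources used here do not say what else the lines share, or whether each is a single clone. Neither the files nor the reference pair the gene identifiers (IDs) with names, so the disrupted gene and the markers of the tissue were not checked by name and no function is given. Genes are described by their ID and by its prefix, the part before the _ sign.

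Counts in genes lay between 4778177 and 10349601 per library. The highest belonged to 46-2 at ZT0, and the next of line 46 had 5962768. Sample codes begin with A or Z, letters whose meaning is not stated. At ZT2 all 3 line 46 libraries carry Z and both line 48 libraries carry A, so line and letter cannot be told apart there. At ZT0, 46-1 carries A, at ZT6, 46-1 carries A, and the other NDUFA5 KO libraries at those times carry Z. In WT all libraries at ZT2 carry A, all at ZT0 carry Z and most at ZT6 carry Z. The share of reads not aligned was 10.9% to 17% in line 46 and 14.5% to 18.1% in line 48. At ZT2 the lines did not overlap in this share, with 12.9% to 16% in line 46 and 17.6% and 18.1% in line 48. Nor did they overlap at ZT2 in the share of reads set aside for low alignment quality, 12.2% to 12.6% against 14.4% and 13.3%, or in the number of genes with counts, 19913 to 20094 against 20658 and 20599. The part of these in the line differences was not tested.

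Time of day separated the 14 libraries more than line did. The first principal component of log2 CPM (counts scaled to a common library size) held 56.7% of the variance and set ZT0 apart from the light. Component 2 held 21.1% and set ZT2 above ZT6. Within ZT2 the line 46 libraries scored 84.9, 63.8 and 83.5 on it and the line 48 libraries 26.3 and 33. Component 3, with 7.64%, held the line 48 libraries at ZT2 apart from the other 12, at -67.5 and -55.1 against 31.5, -1.31 and 26.2 in line 46.

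**Figure D1:**
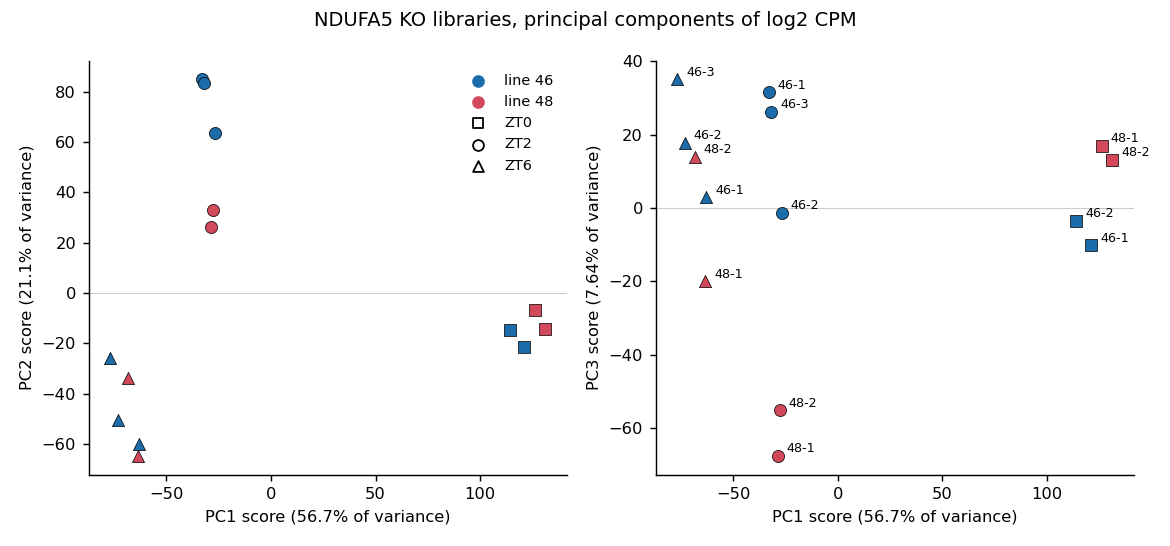
Scores of the 14 NDUFA5 KO libraries on principal components 1, 2 and 3 of log2 CPM, with colour for the line and shape for the time. Line 48 at ZT2 lies at -67.5 and -55.1 on component 3, below all other libraries, while the lines interleave at ZT6.

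Distances between libraries gave the same picture. The root mean square difference in log2 CPM at ZT2 was 0.614 to 0.902 between lines and 0.372 to 0.573 within a line, with no overlap. At ZT0 it was 0.564 to 0.646 between lines and 0.451 to 0.583 within a line. At ZT6, 0.467 to 0.713 between lines overlapped 0.485 to 0.630 within a line.

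The lines differed in many genes at ZT2, in few at ZT0 and in none that passed the test at ZT6. A gene is called where edgeR's quasi-likelihood test gives a Benjamini-Hochberg adjusted p under 0.05 over the 18460 genes tested. At ZT2, 2937 genes were called (15.9%), 1567 higher (8.49%) and 1370 lower (7.42%) in line 46, and 1519 differed at least 2-fold. At ZT0, 36 were called (0.195%), 7 higher (0.0379%) and 29 lower (0.157%). At ZT6, 0 were called by edgeR and 0 by DESeq2, with 1075 at an unadjusted p under 0.05 in edgeR.

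Averaged over the times, 560 genes were called (3.03%), 318 higher (1.72%) and 242 lower (1.31%) in line 46, of which 38 differed at least 2-fold. This average followed ZT2. The fold was largest at ZT2 in 175 of the 199 called Pp3c2 genes, in 92 of the 98 called genes of Pp3c25 and Pp3c27, and in 97 of 119 higher and 98 of 144 lower genes of the other prefixes. Averaged over ZT0 and ZT6 alone, an alternative chosen after seeing the data, 2 genes were called.

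The ZT2 count depended on single libraries. It was 611 without 48-1, 1833 without 46-1, 1891 without 48-2 and 1895 without 46-3, all at ZT2. Scaling moved its balance. When the TMM scaling (trimmed mean of M values) was replaced by library totals, 1149 of 3132 called genes were higher in line 46, against 1567 of 2937, and the median log2 difference of all genes at ZT2 moved from -0.01 to -0.13.

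Called genes at ZT2 were unevenly spread over prefixes. In Pp3c2, 434 of 1143 genes were higher in line 46 and 9 lower. In Pp3c25 and Pp3c27 together, 341 of 651 were lower in line 46 and 18 higher. Without 48-1 at ZT2 the 434 became 88 and the 341 became 130. Of the 16666 other genes, 2135 (12.8%) were called, 1115 higher and 1020 lower, and the share called in each of the other 24 prefixes lay between 9.34% and 16.2%. At ZT0 there was no such excess, with 2 of 1143 Pp3c2 genes and 2 of 651 Pp3c25 and Pp3c27 genes called.

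**Figure D2:**
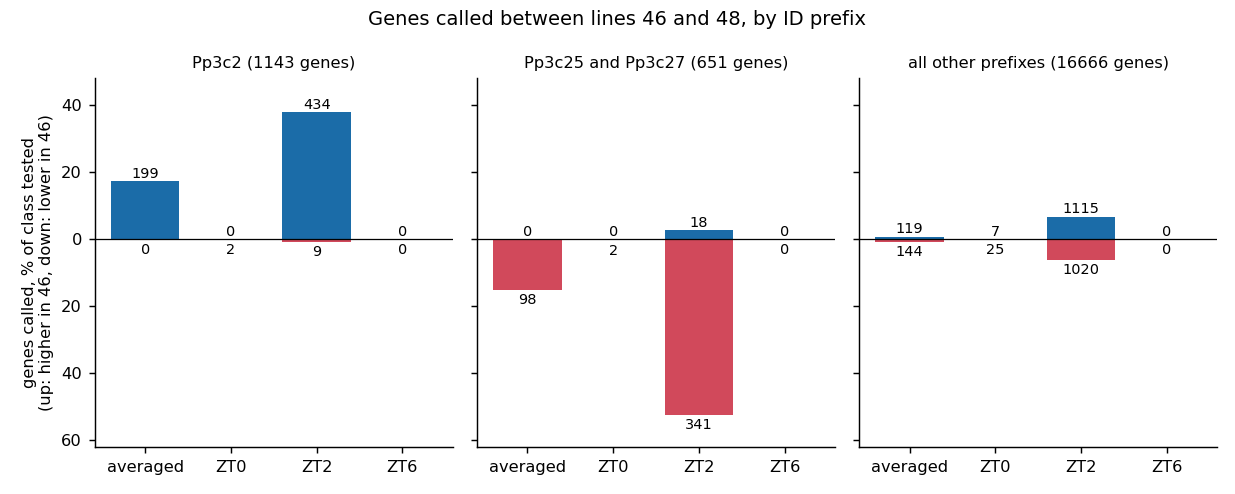
Share of the genes of each prefix class called higher (blue, up) or lower (red, down) in line 46 than in line 48, averaged over times and at each time, with the number of genes on each bar. At ZT2, 434 Pp3c2 genes were higher and 341 Pp3c25 and Pp3c27 genes lower in line 46, and the other prefixes were split 1115 to 1020.

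Pp3c2 genes stood above WT in every library of both lines, and less so in line 48. For each library the median over the 1143 tested Pp3c2 genes of log2 CPM minus the WT mean of the same time was taken. At ZT0 it was 0.92 and 0.91 in line 46 against 0.76 and 0.77 in line 48. At ZT2 it was 0.78, 0.79 and 0.79 against 0.15 and 0.34, and at ZT6 it was 0.90, 0.78 and 0.92 against 0.45 and 0.75.

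Every line 46 library exceeded every line 48 library of its own time, most narrowly at ZT6, where this rests on 46-3 being of line 46. The difference averaged over the times was 0.32, with an exact two-sided permutation p of 0.00167, the smallest the 600 arrangements of lines within times can give, and 0.045 after adjustment over 27 prefixes. With 46-3 at ZT6 taken as line 48, the lines overlapped at ZT6, the difference was 0.27 and the call was lost (adjusted exact permutation p = 0.135). By time, ZT2 had the largest difference, 0.54, followed by ZT6 with 0.26 and ZT0 with 0.15. The 15 COX11 KO libraries lay between 0.88 and 0.97 and the 18 WT libraries between -0.02 and 0.04, so that at ZT2 line 48 fell between the WT range and line 46. On a linear scale the median Pp3c2 gene was at 1.11 and 1.27 times WT in line 48 at ZT2 and at 1.72 to 1.73 times WT in line 46.

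With fewer libraries this test cannot pass for a single prefix. Without each of the 14 libraries in turn the difference stayed between 0.25 and 0.34, and without 46-3 at ZT6 it was 0.29. The exact permutation p was then the smallest possible, 0.00278 to 0.00417, which becomes 0.075 to 0.112 after adjustment. Within letter Z the difference was 0.20 and without ZT2 it was 0.21, where the smallest possible permutation p, 0.0556 and 0.0167, cannot pass either, so for these values the test says nothing.

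Line 48 at ZT2 also carried higher levels of Pp3c25 and Pp3c27 genes, which no other NDUFA5 KO library did to that extent. The Pp3c25 median, over 396 genes, was 0.81 in 48-1 and 0.49 in 48-2 at ZT2, and -0.10 to 0.05 in the other 12 libraries. The Pp3c27 median, over 255 genes, was 0.78 and 0.54 in the same libraries, 0.11 in 48-1 at ZT6 and -0.21 to 0.01 in the other 11. WT lay between -0.04 and 0.08 for these prefixes and COX11 KO between -0.14 and -0.01.

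In the library with the higher Pp3c25 and Pp3c27 medians, 48-1 at ZT2, the Pp3c2 median was the lower. Averaged over the times, line 46 minus line 48 was -0.19 for Pp3c25 (exact permutation p = 0.0883, adjusted 0.256) and -0.24 for Pp3c27 (exact permutation p = 0.0417, adjusted 0.188), so neither passed. The differences were -0.62 and -0.68 at ZT2, 0.07 and 0.05 at ZT0, and -0.01 and -0.08 at ZT6. For the other 24 prefixes the averaged difference lay between -0.03 and 0.05 and none passed.

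**Figure D3:**
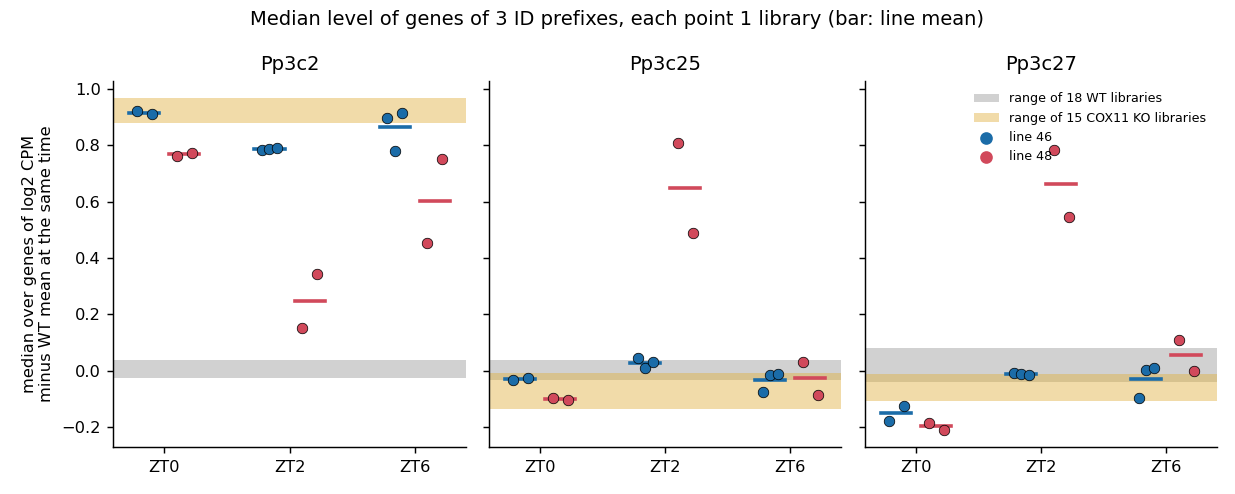
Median over the genes of 3 ID prefixes of log2 CPM minus the WT mean at the same time, with 1 point per library, a bar for the line mean, and bands for the range of WT and COX11 KO libraries. Line 48 at ZT2 was low for Pp3c2 (0.15 and 0.34) and high for Pp3c25 (0.81 and 0.49) and Pp3c27 (0.78 and 0.54).

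These shifts ran along the whole numbering of each prefix. Genes were put in order of the number in their ID, which is a running number within the prefix, and cut into bins of about 60. All 19 Pp3c2 bins had a median above WT in each of the 14 libraries. In 48-1 at ZT2 the bins lay between 0.02 and 0.30 and in 48-2 between 0.17 and 0.50, all below those of line 46 at ZT2 (0.53 to 1.01).

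All 7 Pp3c25 bins were above WT in 48-1 (0.69 to 0.94) and 48-2 (0.42 to 0.66) at ZT2, as were all 4 Pp3c27 bins (0.70 to 0.92 and 0.41 to 0.66). The 277 bins of other prefixes lay between -0.34 and 0.32 in these libraries. Every bin was higher in 48-1 than in 48-2 for Pp3c25 and Pp3c27.

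**Figure D4:**
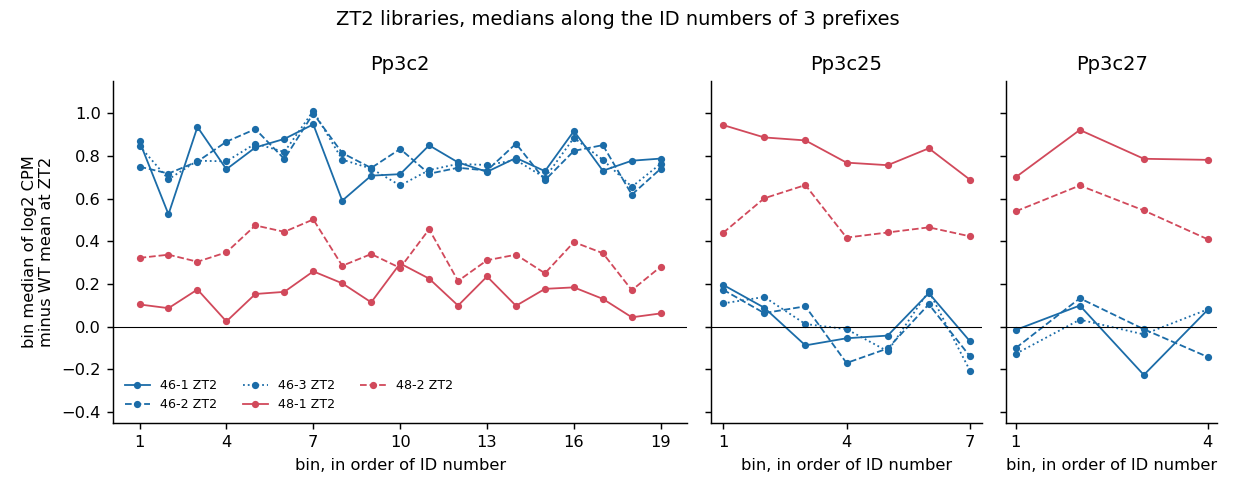
Bin medians of log2 CPM minus the WT mean at ZT2, in order of the ID number, for the 5 NDUFA5 KO libraries at ZT2. For Pp3c2 the line 48 bins lie between 0.02 and 0.50 and those of line 46 between 0.53 and 1.01, and for Pp3c25 and Pp3c27 the line 48 bins lie between 0.41 and 0.94.

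Most Pp3c2 genes called on average, though not all, had 1 direction throughout. Of the 199 called higher in line 46, 152 were higher at each of the 3 times, 155 at ZT0, 198 at ZT2 and 197 at ZT6. The average chose these genes and itself favours a shared sign, so this is a description. Pp3c2_7760 had 87.6 and 88.4 CPM in line 46 and 73.2 and 75 in line 48 at ZT0, 258, 177 and 235 against 99 and 84.2 at ZT2, and 147, 181 and 276 against 111 and 121 at ZT6. As the rule for named genes requires here and for the next 3 genes, the lines did not overlap at any time. The averaged log2 difference was 0.78 (standard error, SE, 0.15; edgeR adjusted p = 0.00285). WT had a median of 100 CPM at ZT0, 136 at ZT2 and 126 at ZT6.

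Pp3c2_34630 stood below WT in line 48 at ZT0 and ZT2, unlike the median gene of its prefix. It had 35.4 and 58.3 CPM in line 46 and 27.7 and 26.5 in line 48 at ZT0, 32.5, 27.2 and 33.8 against 19.2 and 16.6 at ZT2, and 37.1, 43.5 and 59.2 against 27.9 and 28.3 at ZT6. Line 46 was higher at each time, by 0.78 in log2 on average (SE 0.13; edgeR adjusted p = 0.000618). Line 48 was below WT at ZT0 (log2 -1.14) and at ZT2 (log2 -1.0), and at ZT6 line 46 was above WT (log2 0.40, edgeR adjusted p = 0.0339). The line 46 means at ZT0 and ZT2, 46.8 and 31.2 CPM, were also below the WT means of 59.7 and 35.8. At ZT6 the mean of line 48 was 28.1 CPM and that of WT 35.3. Both Pp3c2 genes kept their call without any single library.

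Among Pp3c25 and Pp3c27 genes all 98 called on average were lower in line 46, with 65 lower at ZT0 and 57 lower at each time. Pp3c25_5350 had 15.4 and 13.1 CPM in line 46 against 24.7 and 29.9 in line 48 at ZT0, 14.7, 10.3 and 9.89 against 23 and 16.6 at ZT2, and 28.9, 32 and 18 against 41.8 and 32.1 at ZT6. The lines stood closest at ZT6. The averaged log2 difference was -0.73 (SE 0.20; edgeR adjusted p = 0.031). WT, at medians of 61.9, 52.2 and 45.9 CPM, was above both lines.

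Pp3c27_1710 had 6.87 and 4.51 CPM in line 46 against 7.28 and 8.44 in line 48 at ZT0, 6.71, 5.70 and 4.29 against 11.4 and 12.3 at ZT2, and 8.36, 4.16 and 6.60 against 9.64 and 8.77 at ZT6. Its log2 difference was -0.70 (SE 0.19; edgeR adjusted p = 0.0329), and the separation was clearest at ZT2. Pp3c25_5350 lost its call without 48-1 or 46-3 at ZT2, without 46-3 or 48-1 at ZT6, and without 46-2 or 48-2 at ZT0. Pp3c27_1710 lost it without any 1 of 9 libraries, and kept it without 46-1 at each time, without 46-2 at ZT2 and without 48-2 at ZT6.

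Outside these prefixes, the ZT2 calls fell in both directions. The genes named next for ZT2 were ranked over all prefixes, these included. Pp3c12_7310 had the largest fold among the higher genes that met the rule for named genes, with 34.5, 4.73 and 26.3 CPM in line 46 and 0.483 and 0.173 in line 48 at ZT2. No count was found in either line or in WT at ZT0. At ZT6 it ran from 1.67 through 15.5 to 87.3 CPM in line 46 and was 1.23 and 13.9 in line 48, so the lines overlapped. The log2 difference at ZT2 was 5.94 (SE 1.48; edgeR adjusted p = 0.00584), and without 48-1 or without 48-2 at ZT2 the call was lost.

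Pp3c2_1570 had a like course over the libraries. It had 29.7, 2.61 and 17 CPM in line 46 at ZT2 and 3 counts over both line 48 libraries, a ratio of 63.8 (95% counting interval 21.6 to 311), and its call was also lost without 48-1 or without 48-2 (edgeR adjusted p with all libraries = 0.00583). In both genes 46-1 and 46-3 were the high libraries at ZT2, and 46-3 was the highest at ZT6.

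Pp3c7_13340 was lower in line 46 at ZT2, where line 46 held 1 count over 3 libraries and line 48 had 19.5 and 3.28 CPM. The ratio of line 48 to line 46 was 198 (95% counting interval 35 to 7890; edgeR adjusted p = 0.000147). At ZT6 the order was the other way, with 15.0, 3.84 and 32.2 CPM in line 46 and 1.23 and 1.16 in line 48. WT was between 0.18 and 2.72 CPM at ZT6 and at most 0.533 at ZT2.

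Pp3c27_6610 had 1 count over the 3 line 46 libraries at ZT2 and 17.2 and 0.69 CPM in line 48, a ratio of 157 (27.6 to 6270; edgeR adjusted p = 0.000283) that rested on 48-1, without which the gene was not called. At ZT6 it had 12.0, 3.04 and 33.5 CPM in line 46 and 3.28 and 0.497 in line 48, so the lines overlapped. The intervals of these ratios cover counting error only.

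The ZT2 difference was next read on gene lists made from WT and COX11 KO libraries, none of which enter the contrast of the lines. Genes lower in COX11 KO than in WT at all 3 times (COX11-down, 556 outside the 3 prefixes) were called lower in line 46 at ZT2 more often than genes overall. Of them 101 (18.2%) were called lower and 8 (1.44%) higher, beside 6.12% and 6.69% over all 16666 genes. The median fitted log2 difference was -1.19, beside -0.02. Genes higher in COX11 KO at all times (COX11-up, 237) had 21 (8.86%) called higher and 1 (0.422%) lower, with a median of 0.40. The share called in all, 9.28%, was below the 12.8% over all genes.

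The libraries showed this as follows. The median COX11-down gene, in log2 CPM from the midpoint of the line means, was at -0.28, -0.47 and -0.38 in line 46 and 0.49 and 0.28 in line 48 at ZT2. The lines did not overlap. On this scale, which adds a prior count and draws low genes together, the difference is smaller than the fitted one. At ZT0 the list stood at 0.06 and 0.00 in line 46 and -0.07 and -0.07 in line 48, and at ZT6 at -0.09, -0.01 and -0.15 against 0.23 and -0.09. At ZT0 the lines did not overlap either, with line 46 the higher by a small margin, the reverse of ZT2. They overlapped at ZT6, and the list's call counts were 0 at ZT0 and at ZT6. Without 48-1 at ZT2, 26 COX11-down genes of all prefixes were called lower, against 111 with it, and 64 without 46-3 at ZT2. Likewise 17 COX11-up genes of all prefixes were called higher without 48-1 at ZT2, against 101 with it.

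COX11-up genes were at 0.03, 0.33 and 0.16 in line 46 and -0.31 and -0.02 in line 48 at ZT2. Line 46 was the higher by a small margin between 46-1 and 48-2. At ZT6 they were at 0.11, 0.09 and 0.16 against -0.17 and -0.05, and at ZT0 at -0.03 and 0.17 against 0.03 and -0.08. Over the 16666 genes the line difference at ZT2 correlated with the COX11 KO effect, across genes that are not independent replicates and with no library in common, at r = 0.39, 0.46 and 0.21 for the effect at ZT0, ZT2 and ZT6. At ZT0 the line difference had r between -0.08 and -0.04 with the same effects, and at ZT6 between 0.13 and 0.28, or between 0.21 and 0.25 without 46-3.

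**Figure D5:**
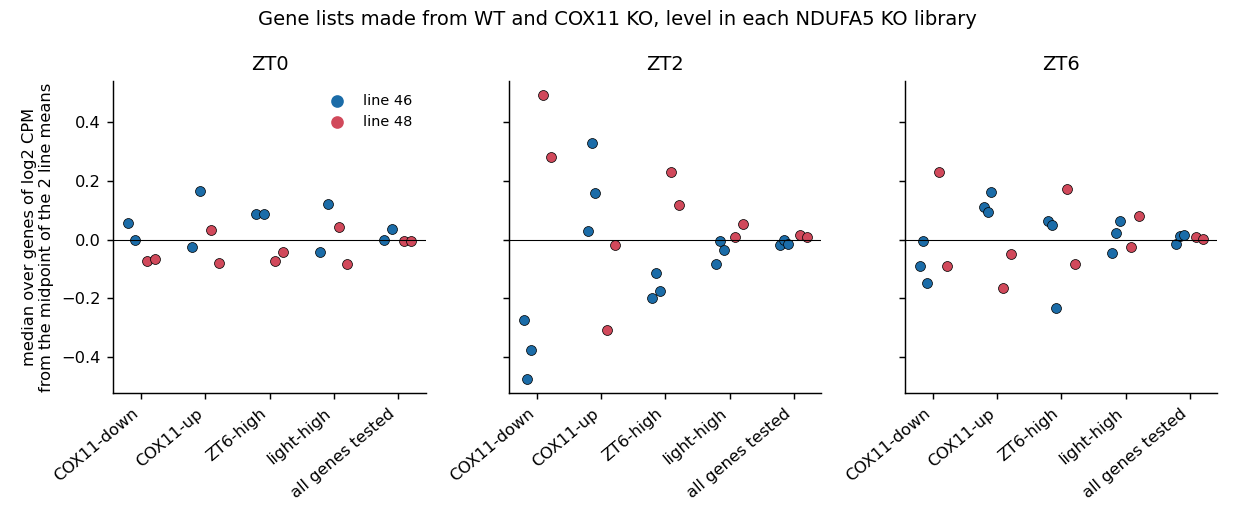
Median over the genes of each list of log2 CPM from the midpoint of the means of lines 46 and 48, with 1 point per library, at ZT0, ZT2 and ZT6. At ZT2 the COX11-down list lies between -0.47 and -0.28 in line 46 and at 0.28 and 0.49 in line 48, while all genes tested lie near 0.

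Most lists of genes with a daily course in WT were called more often than the background of 12.8%. Of 929 genes higher at ZT2 and ZT6 than at ZT0 in WT (light-high), 288 were called at ZT2 (31.0%), 178 higher (19.2%, beside 6.69% over all genes) and 110 lower (11.8%, beside 6.12%) in line 46. Of 385 genes that peaked at ZT2 in WT, 97 were called (25.2%), 51 higher and 46 lower. Of 460 genes highest at ZT6 in WT, 90 were called (19.6%), with a median of -0.39. Their excess lay in the 62 lower genes (13.5%), while the 28 higher ones (6.09%) were near the background. Of 344 genes lowest at ZT2 in WT 56 were called (16.3%), of 167 lowest at ZT6 25 (15%), and of 977 high at night 108 (11.1%). In WT the ZT2 libraries carry letter A, and all ZT0 and most ZT6 libraries carry Z. A letter effect could therefore enter both these lists and the line difference at ZT2, and its part was not tested.

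The share called at ZT2 also rose with abundance. Among all genes tested, 8.13% of the 4615 least abundant genes and 25.3% of the 4615 most abundant were called at ZT2. The abundance of the lists, and its part in their shares, was not tested. The light-high list gave 326 called genes over all prefixes, and 61 without 48-1, 179 without 48-2 and 194 without 46-1.

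Set beside WT at ZT2, line 46 stood farther away than line 48 for most of the genes called between them outside the 3 prefixes. WT was nearer to line 48 in 759 of 1115 genes called higher in line 46 (68.1%) and in 827 of 1020 called lower (81.1%). The COX11 KO mean was also nearer to line 48 in most of them, 682 (61.2%) and 594 (58.2%). The higher genes had a median log2 difference from WT of 0.93 in line 46 and -0.28 in line 48, and the lower genes -1.21 in line 46 and -0.23 in line 48. These medians share the WT libraries and the ZT2 libraries that chose the genes, so they are a description. At ZT2 all WT libraries and most COX11 KO libraries carry letter A, as line 48 does, while line 46 carries Z. Nearness to line 48 therefore cannot be told apart from a shared letter.

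Against WT, 8159 genes were called in line 46 at ZT2 (44.2%) and 5383 in line 48 (29.2%), with 3 and 2 libraries. At ZT2 line 46 differs from WT in code letter and line 48 does not, so line and letter cannot be told apart in these 2 counts. Without 48-1 or 48-2 the latter count was 3407 or 2826. At ZT0, with 2 libraries each, 9890 (53.6%) and 10143 (54.9%) were called, and at ZT6 6387 (34.6%) and 4379 (23.7%). Without 46-3 the line 46 count at ZT6 was 4766, and without 48-1 or 48-2 the line 48 count was 2423 or 1902.

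At ZT0 the same genes mostly ran the other way, and at ZT6 mostly the same way, in NDUFA5 KO libraries that did not choose them. Outside the 3 prefixes, the 1115 genes higher in line 46 at ZT2 had a median line difference of -0.13 at ZT0, where 37.4% were above 0 (53.6% over all genes), and 0.16 at ZT6, where 70.8% were (51.3%). The 1020 lower genes had 0.20 at ZT0, with 69.8% above 0, and -0.22 at ZT6, with 24%.

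At ZT6 the result for the higher genes rested on 46-3, the library of uncertain line. Without it, 1114 of them had a median line difference of -0.03 and 44% were above 0 (46.7% over all genes), so their direction was not kept. The lower genes were at -0.14, with 28.6% above 0. This was computed after seeing the data. The genes higher in line 46 at ZT2 were also set against their mean over all NDUFA5 KO libraries at ZT6, 46-3 included. Their medians from this mean were -0.18 in 46-1, 0.05 in 46-2 and 0.32 in 46-3, and -0.29 in 48-1 and 0.14 in 48-2. The lines overlapped, and 46-3 was the highest library.

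The code letter was looked at in groups where it varies within a line. In COX11 KO line 150 at ZT2, 150-3 carries Z and 150-1 and 150-2 carry A. There the genes higher in line 46 at ZT2 had a median of -0.28 for Z minus A and those lower 0.16, opposite to the line difference. In line 46 at ZT6, 46-2 and 46-3 (Z) minus 46-1 (A) gave 0.33 and -0.18, along it, and 46-2 minus 46-1, without the library of uncertain line, gave 0.22 and -0.03. In line 46 at ZT0, 46-2 (Z) minus 46-1 (A) gave 0.10 and -0.04, beside 0.04 over all genes. Above 0 were 58.2% and 46.1%, beside 53.7% over all genes. The median over all genes was 0.005 in line 150, and at ZT6 0.01 with 46-3 and 0.02 without it. Each comparison has a single library on at least 1 side. With the letter as a covariate over all 47 libraries edgeR called 0 genes for the letter, with 1876 at an unadjusted p under 0.05. It called 2298 for line at ZT2. At ZT2 each line holds a single letter, so this fit takes the letter effect from other groups and assumes it equal in all. It cannot tell line and letter apart at ZT2.

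At the end of the night few genes differed. The 36 called at ZT0 shared 4 genes (11.1%) with the ZT2 calls in the same direction and 3 in the opposite one. Over all genes tested, 15.9% were called at ZT2, so this overlap is a description. Pp3c9_24840 had 108 and 110 CPM in line 46 and 23 and 24.1 in line 48 at ZT0 (log2 2.21, SE 0.50; edgeR adjusted p = 0.0446). At ZT2 the order was the other way, 48.4, 54.7 and 36.6 against 110 and 96.7, and at ZT6 the lines overlapped, with 166, 178 and 117 against 217 and 160. WT at ZT0 ran from 41.3 to 223 CPM with a median of 106.

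Pp3c9_25690 followed it, with 261 and 233 CPM against 73.8 and 78.1 at ZT0 (log2 1.70, SE 0.38; edgeR adjusted p = 0.0426) and 120, 108 and 97.6 against 208 and 165 at ZT2. For both genes line 46 was within the WT range at ZT0 and line 48 below it.

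Pp3c5_9860 was lower in line 46, at 12.5 and 11.5 CPM against 35.8 and 46.5 in line 48 at ZT0 (log2 -1.78, SE 0.41; edgeR adjusted p = 0.0463). WT had 1.37 to 4.31 CPM at ZT0, so both lines were above it. At ZT2 the order was the other way, with 2.8 to 4.07 CPM in line 46 against 1.73 and 2.25 in line 48. The same held at ZT6, with 2.4 to 5.28 against 1.82 and 2.05. Pp3c1_31230 had 3.33 and 5.78 CPM in line 46, inside the WT range of 2.37 to 9.04, against 16.8 and 19.3 in line 48 (log2 -1.94, SE 0.43; edgeR adjusted p = 0.0426). At ZT2 and ZT6 the lines overlapped in Pp3c1_31230.

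The ZT0 count moved with each of its 4 libraries, down for 3 of them and up for 46-1. Without 46-2 or without 48-2 at ZT0, 0 genes were called, 7 without 48-1 and 172 without 46-1, and 55 without 46-2 at ZT2. DESeq2 called 170. Each of the 4 genes named at ZT0 lost its call without any single ZT0 library, and the Pp3c9 genes also without some libraries of the other times.

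At ZT6 the closest call had an edgeR adjusted p of 0.36. Without 46-3, whose labels disagree, 0 genes were called, and 0 with it taken as line 48. Without 48-1 at ZT6, 1 was called. Among the library pairs at ZT6 the distance between 46-3 and 48-1 was the largest, at 0.713. A difference of the size seen at ZT2 in Pp3c2 was not present in 48-2, whose Pp3c2 median of 0.75 was close to the 0.78 of 46-2.

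Outside the 3 prefixes 4 genes were named for the averaged contrast by a rule that required no overlap of the lines at any time, a property of 1.63% of all genes tested. Their lack of overlap is therefore no result. Pp3c17_16470 had 6.24 and 10.5 CPM in line 46 against 5.25 and 2.17 in line 48 at ZT0, 30.6, 24.6 and 35.3 against 14 and 13.1 at ZT2, and 15.3, 16.3 and 21.1 against 14.6 and 11.1 at ZT6 (log2 0.93, SE 0.18; edgeR adjusted p = 0.00285). It was above WT in line 46 at ZT2 (log2 0.81) and below WT in both lines at ZT0 (log2 -0.66 and -1.83) and ZT6 (log2 -0.63 and -1.09). The call held without any single library.

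Pp3c18_11200 was lower in line 46, with 0.624 and 0.231 CPM against 1.01 and 2.17 at ZT0, 5.08, 4.73 and 5.23 against 9.98 and 8.46 at ZT2, and 6.53, 6.71 and 4.95 against 9.64 and 10.6 at ZT6 (log2 -1.20, SE 0.24; edgeR adjusted p = 0.00365). WT was above both lines, with medians of 6.09, 15.4 and 14.2 CPM. The call was lost without 46-2 or without 48-2 at ZT0.

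Pp3c16_10460 had 1.66 and 1.62 CPM in line 46 against 3.23 and 3.62 at ZT0, 3.81, 7.17 and 5.60 against 15.9 and 10.7 at ZT2, and 1.52, 1.76 and 3.30 against 8.61 and 6.62 at ZT6 (log2 -1.37, SE 0.37; edgeR adjusted p = 0.0321). Some of its deposited counts were not whole, so its values are uncertain to that extent. Pp3c1_12470 held 12 counts in line 46 and 3 in line 48 at ZT0, a ratio of 2.70 (0.73 to 14.9), and had 17, 14.5 and 17.5 CPM against 4.02 and 6.73 at ZT2 and 8.36, 7.83 and 10.7 against 5.13 and 5.79 at ZT6 (log2 1.22, SE 0.33; edgeR adjusted p = 0.0322). Each of these calls was lost without any of 8 libraries. For both genes these included 48-1, 46-1 and 46-3 at ZT2, 46-2, 48-1 and 48-2 at ZT0 and 48-1 at ZT6, and also 46-1 at ZT0 for Pp3c16_10460 and 46-3 at ZT6 for Pp3c1_12470.

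The averaged count of 560 was 110 without 48-1 at ZT2, 145 without 48-1 at ZT6, 154 without 48-2 at ZT0, 236 without 46-2 at ZT0, 264 without 48-1 at ZT0, 265 without 46-3 at ZT6 and 345 without 46-3 at ZT2. The library of uncertain line taken as line 48 gave 67.

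Whether the line difference changed with time was tested by its interaction with time. It differed between ZT2 and ZT0 in 1540 genes (8.34%), with line 46 minus line 48 more positive at ZT2 in 794 (4.3%) and more negative in 746 (4.04%). Between ZT6 and ZT2 it differed in 254 genes (1.38%), more positive at ZT6 in 112 (0.607%) and more negative in 142 (0.769%). Between ZT6 and ZT0 it differed in 5 (0.0271%), more positive at ZT6 in 4 (0.0217%) and more negative in 1 (0.00542%). In Pp3c25 and Pp3c27, 175 of 651 genes had a difference more negative at ZT2 than at ZT0 and 9 a more positive one. In Pp3c2, 167 of 1143 genes were more positive at ZT2 and 3 more negative. Between ZT6 and ZT2, 74 genes of Pp3c25 and Pp3c27 were more positive at ZT6 and 4 more negative.

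These counts moved with single libraries. The first was 360 without 48-1 at ZT2, 922 without 46-1 and 974 without 46-3 at ZT2, and 546, 722 and 768 without 48-1, 48-2 and 46-2 at ZT0. The count between ZT6 and ZT2 was 14, 74 and 90 without 48-1, 46-1 and 46-3 at ZT2, 521 without 46-2 at ZT2, 22 and 383 without 48-2 and 48-1 at ZT6, and 136 and 129 without 46-1 and 46-2 at ZT6. The count between ZT6 and ZT0 ranged from 0 to 54.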

How the data were processed

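The deposited table holds estimated counts per gene for 3′ tag libraries, in which reads come from the 3′ end of a transcript. Per the submitters' processing notes the tools included HTSeq 2.0.2, Bowtie2 2.2.5 and SAMtools 1.6. The sources used here give no parameters, genome build or annotation for them. Of the table's 57 columns, 47 match a library used here and 10 match none and were left out. The 5 HTSeq summary lines (26.9% to 34.9% of the counts of the 14 libraries) were left out. The design assumed counts. The deposited estimated counts (2.35% of values not whole, by over 1e-06) were rounded.

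Genes kept by edgeR's filterByExpr over 9 groups of genotype and time (18460 of 32926) were fitted with edgeR 4.0.16 (R 4.3.3, limma 3.58.1) over all 47 libraries, TMM scaling and 15 means for line and time. Contrasts were tested by quasi-likelihood with false discovery rate 0.05. The common coefficient of variation was 20.4%. SEs derive from the F statistic. CPM are TMM-scaled, and log2 CPM has a prior count of 2. The fit and the permutation were tested on simulated data.

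Lists needed FDR 0.05 and at least 2-fold in each WT or COX11 KO contrast that defines them. The rule for named genes took up to 2 per direction per contrast, by fold, with mean CPM of at least 5 and, except for interactions, no overlap of the lines within each time used. Of the IDs, 0 were found in the reference table. Members, lists and prefixes were chosen with earlier results of these data known. Replicates are not stated to be separate cultures, so the spread behind the p-values, which is that among these libraries, may be technical. No 2 libraries of a line and time agreed within sampling noise (chi-square per gene at least 2.55). DESeq2 1.42.0 was an alternative.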

Additional observations from a re-analysis of the deposited data

Results flagged for a closer look

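The difference between lines 46 and 48 itself differed between times, by the interaction test of edgeR's quasi-likelihood fit, in 1540 genes between ZT2 and ZT0, 5 between ZT6 and ZT0 and 254 between ZT6 and ZT2. The values that follow are the change in the log2 line difference, and fitted values that involve a group with few or 0 counts depend on the prior count and are no bound.

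Between ZT2 and ZT0, the change was 6.08 in Pp3c2_26550, which had 55.9, 15.0 and 49.6 CPM in line 46 and 1.77 and 2.07 in line 48 at ZT2, and 0.416 and 0.578 against 2.43 and 0.965 at ZT0. The change was 5.67 in Pp3c8_20680, whose line 48 libraries had 37.6 and 35 CPM at ZT0 and 0.644 and 0.69 at ZT2, while line 46 had 5.20 and 4.40 at ZT0 and 2.28 to 7.09 at ZT2. In Pp3c18_18530 it was -10.73, with 152 and 75.4 CPM in line 48 at ZT2 against at most 2.36 in line 46, and 0.202 and 1.69 against 3.12 and 24.6 at ZT0. In Pp3c7_13340 it was -11.29, a fitted value that rests on 0 counts in line 48 at ZT0 and 1 count in line 46 at ZT2. Each of these calls was lost without some library: Pp3c2_26550 without 48-1 at ZT0, Pp3c8_20680 without 48-1 at ZT2, Pp3c18_18530 without 46-2 at ZT0, and Pp3c7_13340 without 48-1 at ZT2 or without 46-2, 48-1 or 48-2 at ZT0.

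Between ZT6 and ZT0, 3 of the 5 genes were named. Pp3c2_24290 changed by 1.6, with 9.36 and 11.9 CPM in line 46 against 22 and 26.3 in line 48 at ZT0, and 93.8, 75.1 and 89.8 against 62.7 and 64.7 at ZT6. Pp3c1_9850 changed by 1.56, with 80.9 and 52.4 against 159 and 148 at ZT0 and 70.7, 86.8 and 90.3 against 69.5 and 59.9 at ZT6. Pp3c17_2560 changed by -1.70, with 13.5 and 14.1 against 7.07 and 4.58 at ZT0 and 11.1, 8.15 and 9.90 against 15.0 and 12.1 at ZT6. In all 3 the lines did not overlap at either time. Over all genes tested they did not overlap in 46.4% at ZT0 and in 20.3% at ZT6. The order of the lines turned between the times, which a called interaction favours, so this is a description. Each call was lost without 46-2 or 48-2 at ZT0 and without 48-1 or 48-2 at ZT6. Pp3c1_9850 lost it also without 48-1 at ZT0, and Pp3c17_2560 without 46-2 or 46-3 at ZT6.

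Between ZT6 and ZT2, the change was 10.95 in Pp3c7_13340 and 9.93 in Pp3c27_6610, both fitted against 1 count in line 46 at ZT2. The call of Pp3c27_6610 was lost without 48-1 at ZT2. It was -3.98 in Pp3c8_21600, with 82, 24.4 and 63.6 CPM in line 46 and 2.41 and 3.28 in line 48 at ZT2, and 4.10, 12.8 and 19.8 against 4.92 and 14.2 at ZT6. It was -3.89 in Pp3c1_31210, with 135, 38.5 and 103 CPM against 10.6 and 5.52 at ZT2, and 1.06, 3.36 and 6.76 against 1.64 and 7.78 at ZT6. Each of these last calls was lost without any of 7 libraries: 46-1, 46-3, 48-1 and 48-2 at ZT2 and 46-1, 46-2 and 48-2 at ZT6.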

How the results depend on the processing

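Alternatives changed the scaling, the filter, the libraries fitted, the tool, the line of 46-3 at ZT6 and the code letter. The averaged count of 560 became 338 with the NDUFA5 KO libraries only, 67 with 46-3 at ZT6 taken as line 48, 13 within letter Z, 121 without the genes of Pp3c2, Pp3c25 and Pp3c27, 862 with DESeq2 and 2 without ZT2. Its share higher in line 46, 56.8%, was 44.2% with library totals, 46.6% with RLE size factors, 35.8% with NDUFA5 KO libraries only and 46.3% with 46-3 as line 48. The ZT0 count of 36 was 170 with DESeq2, and the ZT2 count of 2937 was 1933 without the 3 prefixes, whose genes are then not tested. At ZT6 all alternatives gave 0. The 5 interactions between ZT6 and ZT0 became 3 with library totals, 2 with NDUFA5 KO libraries only, 0 with 46-3 as line 48, 24 within letter Z, 3 without the prefixes and 23 with DESeq2. The 254 between ZT6 and ZT2 became 85 with NDUFA5 KO libraries only, 940 with 46-3 as line 48, 76 without the prefixes and 434 with DESeq2. With library totals 34% of the interactions between ZT2 and ZT0 were positive, against 51.6%, and 76.1% of those between ZT6 and ZT2, against 44.1%. The causes were not tested.

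The Pp3c2 difference of 0.316 was 0.273 with 46-3 as line 48, 0.195 within letter Z and 0.205 without ZT2, none past the threshold, which the last 2, like each value without 1 library, had too few arrangements to pass. For Pp3c25 the sign turned within letter Z (0.0439) and without ZT2 (0.0323), and for Pp3c27 within letter Z (0.0294). The letter Z fit could not give a value at ZT2, where no line 48 library carries it.

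Leaving out each library in turn gave 110 to 717 genes averaged, 0 to 172 at ZT0, 611 to 3026 at ZT2 and 0 to 1 at ZT6. The interactions ran from 360 to 1873, 0 to 54 and 14 to 521 (ZT2 against ZT0, ZT6 against ZT0, ZT6 against ZT2). Against WT the counts ran from 7087 to 9888, 7081 to 8232 and 4766 to 6397 in line 46, and from 7652 to 10224, 2826 to 5412 and 1902 to 4367 in line 48. The medians ran from 0.247 to 0.344 for Pp3c2, -0.256 to -0.153 for Pp3c25 and -0.296 to -0.22 for Pp3c27. Where a line was left with 1 library at a time, it was assumed to vary like the other groups. Of 654 alternative values of the 27 named results, 505 kept call and direction, 149 kept the direction only and 0 reversed.

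Replicate numbers do not pair the libraries: deviations of same-numbered libraries of the lines correlated at -0.0505, 0.0823 and 0.0442 at the 3 times, with 2 pairs each. With the number as a replicate block, 469 genes were called averaged, 37 at ZT0, 2795 at ZT2, 0 at ZT6, and 3 in the interaction of ZT6 and ZT0.

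With 2 or 3 libraries per line and time, small differences were not detectable: the median SE of a log2 difference was 0.26 at ZT2 and ZT6 and 0.29 at ZT0.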
